A study of Mus musculus with 8 samples.

Results

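The genes described here are 36 immediate early and secondary genes that neurons switch on after stimulation, taken from the 32285 genes of the deposited count matrices by their symbols. They fall into 7 roles: 8 AP-1 and related basic leucine zipper factors (Fos, Fosb, Fosl2, Jun, Junb, Jund, Atf3 and Maff), 4 EGR zinc finger factors (Egr1 to Egr4), 3 NR4A orphan nuclear receptors (Nr4a1 to Nr4a3), 5 other regulators (Npas4, Klf4, Klf10, Csrnp1 and Per1), 8 genes of signal feedback and growth arrest (Ier2, Ier5, Btg2, Dusp1, Dusp6, Sik1, Gadd45b and Gadd45g), 3 synaptic effectors (Arc, Homer1 and Nptx2) and 5 secreted or peptide processing proteins (Bdnf, Inhba, Vgf, Scg2 and Pcsk1). The data were single-nucleus RNA-seq of the cerebral cortex, with the medial cortex removed, of C57BL/6J mice at postnatal day 25. There were 4 WT and 4 Chd8+/- libraries, labelled Chd8het below, in 4 litter- and sex-matched pairs called male 1, male 2, female 1 and female 2. Chd8 encodes a chromatin remodeler, and the comparison asked how loss of 1 copy changed expression. The sources used here do not describe the Chd8 allele, nor any stimulation or housing condition of the mice before dissection. Replicate 1 libraries were single-indexed and replicate 2 libraries dual-indexed, so index type and replicate number cannot be told apart.

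Calcium entry through synaptic receptors and channels activates kinases that phosphorylate factors already bound to DNA, such as CREB and the serum response factor, and these start immediate early genes without new protein synthesis. Many of the first products are transcription factors (AP-1, EGR, NR4A and Npas4), which then act on secondary genes. Other products act at the synapse, such as Arc, which promotes removal of AMPA receptors, or outside the cell, such as the neurotrophin Bdnf. The cortex is known for inducing parts of this programme with sensory experience, and which secondary genes follow differs between excitatory neurons and interneurons.

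RefSeq windows of the 250 bases upstream of a transcript start (GRCm38.p6) were matched for 28 of the 36 genes, and 4 are printed because the results below turn on their genes. The windows are shown 5′ to 3′ on the gene's strand, and capitals mark each core cAMP response element, TGACG or its reverse complement CGTCA, the core of the site that CREB binds. The windows lie at chr12:85473640-85473889 for Fos, chr15:101266596-101266845 for Nr4a1 and chr13:16011601-16011850 for Inhba, all on the plus strand, and at chr19:4989972-4990221 on the minus strand for Npas4. The Fos and Inhba windows end at the base before the annotated gene, and the Nr4a1 and Npas4 windows lie inside the annotated gene span, upstream of the RefSeq start.
Fos: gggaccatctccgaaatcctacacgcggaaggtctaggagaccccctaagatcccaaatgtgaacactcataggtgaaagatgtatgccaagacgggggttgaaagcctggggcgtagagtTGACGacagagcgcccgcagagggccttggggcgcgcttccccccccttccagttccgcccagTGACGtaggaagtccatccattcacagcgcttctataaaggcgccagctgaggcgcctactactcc
Nr4a1: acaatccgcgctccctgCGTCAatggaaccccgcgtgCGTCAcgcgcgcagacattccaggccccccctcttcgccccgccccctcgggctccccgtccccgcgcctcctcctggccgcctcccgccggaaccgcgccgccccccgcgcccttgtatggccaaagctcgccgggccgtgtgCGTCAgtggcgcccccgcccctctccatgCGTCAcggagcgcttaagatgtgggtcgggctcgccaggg
Npas4: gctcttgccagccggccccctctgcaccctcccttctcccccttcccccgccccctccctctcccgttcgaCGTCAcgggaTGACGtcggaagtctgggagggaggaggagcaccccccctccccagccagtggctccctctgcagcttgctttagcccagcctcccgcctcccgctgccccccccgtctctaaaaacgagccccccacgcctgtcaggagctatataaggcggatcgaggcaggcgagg
Inhba: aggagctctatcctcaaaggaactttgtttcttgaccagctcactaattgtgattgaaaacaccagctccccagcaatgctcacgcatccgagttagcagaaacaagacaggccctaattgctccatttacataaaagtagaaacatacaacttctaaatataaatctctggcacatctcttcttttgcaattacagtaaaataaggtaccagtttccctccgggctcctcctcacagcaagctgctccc
Fos held 2 such elements, at bases -129 to -125 and -66 to -62 from the start, Nr4a1 held 4, Npas4 held 2 and Inhba held none. At least 1 core element was found, on either strand, in 20 of the 28 genes (71.4%), against 19.79% of all 27025 genes with such windows. Some genes have several windows, and counted by window the element was in 27 of 45 windows of these genes, against 17.77% of all 32851. The full element TGACGTCA, which contains the core element on both strands, was in 5 of the 28 (17.9%; Btg2, Dusp1, Maff, Pcsk1 and Scg2) against 1.77% of all genes. The AP-1 motif TGANTCA was in 2 of the 28 (7.1%; Bdnf and Csrnp1) against 7.82%, and the EGR motif GCGTGGGCG was in Maff alone against 0.62%. The NR4A motif AAAGGTCA was in none against 1.55%, and the CArG box, the site of serum response factor, was in Egr2 alone against 1.62%. These matches are letters in a window and were not tested as binding sites. Nptx2, Egr1, Klf10, Sik1, Egr3, Arc, Ier2 and Vgf had no window in the table.

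After filters on genes and mitochondrial counts and removal of 4513 predicted doublets, 77655 of 97772 barcodes were kept, and 60428 nuclei in 29 clusters took a type name from marker genes. The clustering left out the 36 genes. The pooled classes used below held 34455 excitatory nuclei of 7 types and 6829 interneuron nuclei of 4 types. The excitatory pool leaves out 198 Car3 IT nuclei. It also leaves out unnamed clusters whose best marker list was an excitatory one, among them clusters of 2891 and 2787 kept nuclei. No cluster was named L5 IT. Another of these unnamed clusters, of 939 kept nuclei, held 795 nuclei of Chd8het male 2. Library totals ran from 69503598 to 98132783 UMIs, and median UMIs per kept nucleus from 4963 to 7452. In all, 1149 barcodes occurred in more than 1 library, with 27 to 63 shared by any pair of libraries. Chd8 was measured at 75.1, 82.7, 79.7 and 79.5 CPM (UMIs scaled to an equal total per library and type) in WT and at 76.5, 88.8, 78.1 and 78.7 CPM in Chd8het. Values are listed as male 1, male 2, female 1 and female 2 throughout. The libraries labelled Chd8het were thus not lower in Chd8 UMIs. The allele is not described in the sources used here, so this does not check the labels, and every direction below refers to the libraries as labelled. The 2 male 2 libraries stood apart from the other 6 in the genes described here. Some results are given both with and without them, and the rest with all libraries only. CPM were computed from UMIs summed over the nuclei of a type in a library. In such sums, fewer transcribing nuclei of a type and less RNA per nucleus cannot be told apart, except where shares of nuclei are given.

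Level by cell type was read for each gene across 19 types with at least 20 nuclei in every library, and genes were not compared with each other, since 3′ UMIs carry no length correction. Csrnp1, a cysteine- and serine-rich nuclear protein, had 0 UMIs in the named nuclei. Of the other 35 genes, 17 had their highest mean level in a vascular type (12 in endothelial cells, 3 in mural cells, 2 in fibroblasts), 10 in an excitatory type, 3 in an interneuron type and 5 in another glial type. Leading types over all genes are not given here, so these counts are a description. Endothelial sums were small, at 101344 to 236856 UMIs per library, against 33550848 to 50773253 in pooled excitatory nuclei. A lead there can thus rest on few UMIs. Of the 17, Fos, Fosb and Atf3 had 3, 1 and 7 UMIs in their leading type, so their lead is not established. Other leads were also not separated from the next type. Among them were Egr1 in endothelial cells and Fosl2 in fibroblasts, each above the next type in 4 of 8 libraries, and Egr2 in microglia, in 3 of 8. Endothelial nuclei led for Klf4 (92.6 CPM), Jun (81.1 CPM), Jund (91.9 CPM), Btg2 (47.0 CPM) and Dusp1 (44.2 CPM). They numbered 527, with 38 to 106 per library. Other signals were also higher there: heat shock genes ran from 725.4 to 1431 CPM (169.5 to 244.2 CPM in excitatory nuclei) and mitochondrial transcripts from 7190 to 14505 CPM (767.3 to 2154 CPM). Their part in the endothelial levels was not tested. Jun is the usual AP-1 partner of Fos, and pooled excitatory nuclei held it at 3.20 CPM ± 0.934 (SD, n = 8). Dusp1 is a phosphatase that switches off MAP kinases. Per1, a repressor of the circadian clock, was highest in mural cells (53.6 CPM) and astrocytes (50.5 CPM).

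**Figure D1:**
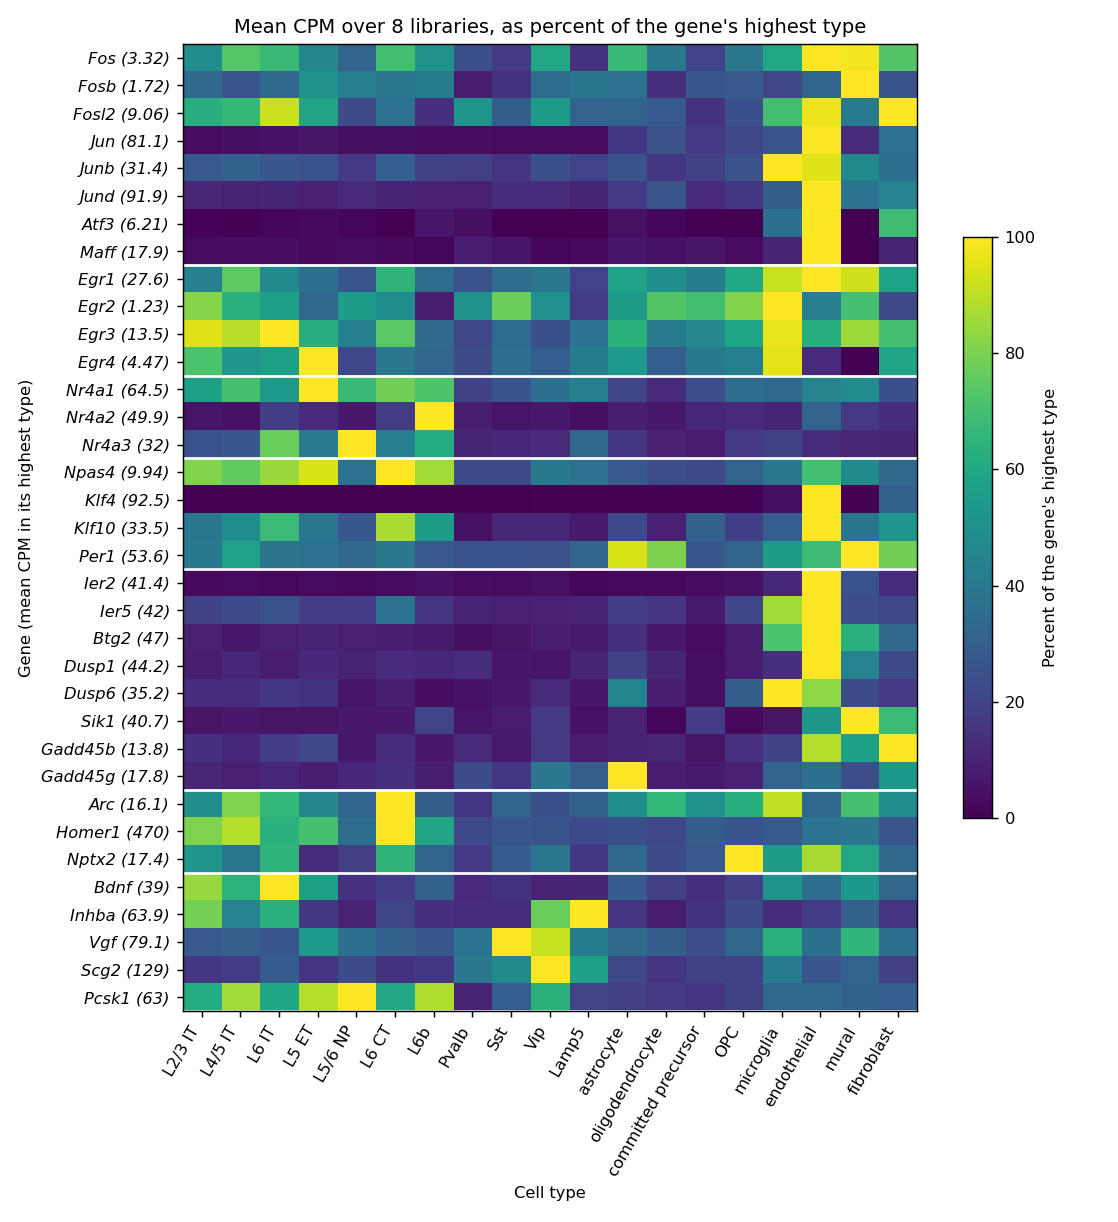
Mean CPM over 8 libraries of 35 genes in 19 cell types, as a percentage of each gene's highest type; rows are genes in order of role, columns are types, and each row label carries the gene's mean CPM in that highest type. Bdnf and Homer1 are high in excitatory types, Vgf and Scg2 in interneuron types, and Klf4, Jun and Btg2 in endothelial cells.

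Pooled excitatory nuclei were above pooled interneuron nuclei in all 8 libraries for 17 genes, and below them in all 8 for 3, Maff, Vgf and Scg2. The same shares over all genes are not given here, so these counts are a description. Bdnf stood at 25.6 CPM ± 9.36 (SD, n = 8) in excitatory nuclei and at 4.78 CPM ± 1.64 (SD, n = 8) in interneurons, a ratio of 5.36. Within excitatory types Bdnf was highest in L6 IT at 33.95, 51.5, 26.3 and 39.0 CPM in WT and 26.3, 72.2, 30.2 and 32.5 CPM in Chd8het libraries. Next came L2/3 IT with a mean of 32.9 CPM, lower than L6 IT in 7 of 8 libraries, and the lowest mean was in Vip interneurons at 3.94 CPM. Homer1, a postsynaptic scaffold whose short form is the activity-induced one and is not separated in these per-gene counts, had means of 469.6 CPM in L6 CT and 417.8 CPM in L4/5 IT. L6 CT was the higher of these in 5 of 8 libraries, so their order was not separated from the spread.

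Among the 19 ordered types the 3 NR4A receptors each had a different leading type. Nr4a1 was highest in L5 ET neurons, at 62.4, 73.6, 44.0 and 50.5 CPM in WT and 64.2, 99.9, 67.3 and 54.2 CPM in Chd8het libraries, above the next type, L6 CT, in all 8. Nr4a2 was highest in L6b neurons, at 76.8, 47.1, 47.6 and 39.8 CPM in WT and 43.4, 77.5, 39.2 and 27.9 CPM in Chd8het libraries, and the next type, endothelial, was lower in all 8 (mean 15.8 CPM). The 198 Car3 IT nuclei, too few to enter the ordering, held Nr4a2 at 389.0 CPM ± 35.97 (SD, n = 8) and Bdnf at 94.0 CPM ± 34.6 (SD, n = 8), both above every type in the ordering. Nr4a3 in these nuclei was 50.9 CPM ± 64.1 (SD, n = 8), from 8.58 to 207.1 CPM, a mean above that of every ordered type. Nr4a3 was highest in L5/6 NP neurons, at 29.7, 42.4, 23.2 and 15.6 CPM in WT and 19.6, 72.9, 36.8 and 16.3 CPM in Chd8het libraries. The next type, L6 IT, was lower in all 8 libraries. The level of each receptor varied widely between libraries, while its leading type was above the type of next highest mean in each of them.

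Of the 5 secreted and processing genes, 3 had their highest mean in an interneuron type, Scg2, Vgf and Inhba, and Bdnf and Pcsk1 had theirs in an excitatory type. Scg2, a granin of dense core vesicles, was highest in Vip cells, at 205.2, 75.6, 159.7 and 84.2 CPM in WT and 157.6, 90.0, 211.6 and 46.4 CPM in Chd8het libraries. The 4 single-indexed libraries were all above the 4 dual-indexed ones, and the wide spread of Scg2 lay along that split. Vgf, a neuropeptide precursor, had means of 79.1 CPM in Sst and 72.3 CPM in Vip cells. Inhba, the activin A subunit, had its highest mean in Lamp5 cells at 63.9 CPM, followed by L2/3 IT at 50.6 CPM. Pcsk1, a prohormone convertase, ranged from a mean of 63.1 CPM in L5/6 NP to 6.30 CPM in Pvalb cells. Fos had means of 3.32 CPM in endothelial nuclei, from 3 UMIs in 2 of 8 libraries, and 2.44 CPM in L4/5 IT nuclei, and none of its 18 neighbouring pairs in the order was separated in all 8 libraries.

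Some neuronal RNA was carried into other nuclei. Neuron markers in astrocytes averaged 11.5 to 52.4% of their excitatory level, and in oligodendrocytes 9.597 to 38.8%. Of 34 genes, 8 were at or below the highest such percentage in astrocytes, and 9 in oligodendrocytes, among them Npas4, Bdnf, Homer1 and Inhba. Levels at or below that mark were read as background. The excitatory marker Slc17a7 stood in interneurons at 21.6% of its excitatory level, Bdnf at 19.1% and Klf10, a Krüppel-like factor, at 16.8%.

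In pooled excitatory nuclei both male 2 libraries were the 2 highest of 8 for 26 of the 33 genes that passed edgeR's filter at 10 counts, beside 13.1% of all genes tested. The same was true of no gene for male 1 (4.01% of all genes), of Jun for female 1 (10.1%) and of Inhba for female 2 (5.18%). Fos, the founding immediate early gene, stood at 1.66, 4.92, 0.373 and 1.02 CPM in WT and at 0.812, 4.71, 1.45 and 0.399 CPM in Chd8het libraries. Both male 2 libraries lay above the other 6, while the WT and Chd8het groups overlapped. Arc stood at 8.75, 27.9, 1.54 and 5.83 CPM in WT and at 4.63, 25.6, 5.25 and 1.76 CPM in Chd8het libraries. Egr1 stood at 9.34, 31.0, 9.22 and 12.2 CPM in WT and at 8.30, 24.1, 9.87 and 10.8 CPM in Chd8het libraries. For Arc and Egr1, too, the male 2 pair was highest and the genotype groups overlapped.

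**Figure D2:**
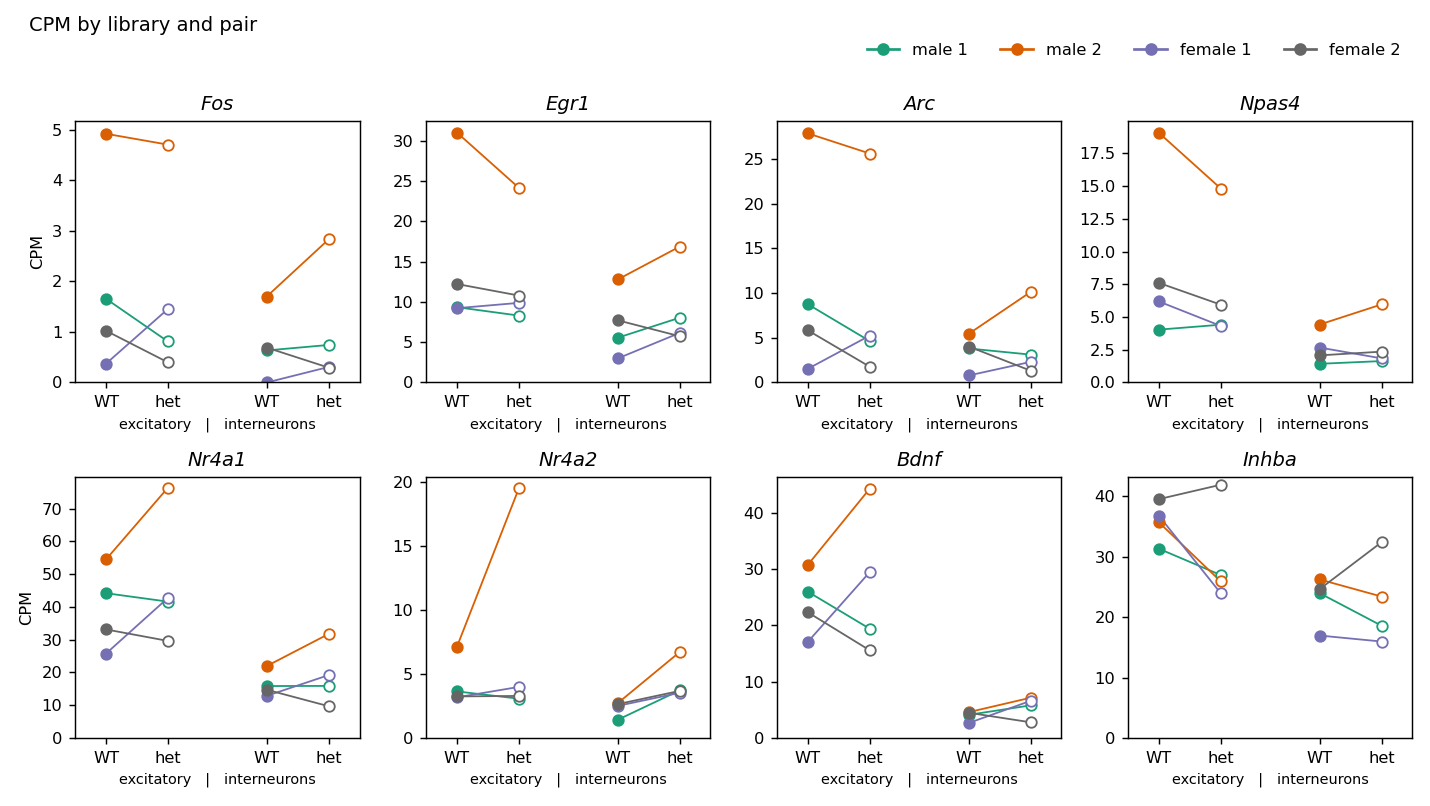
CPM in pooled excitatory nuclei and in pooled interneurons of Fos, Egr1, Arc, Npas4, Nr4a1, Nr4a2, Bdnf and Inhba in each of 8 libraries. Filled points are WT, open points Chd8het, lines join the 2 libraries of a pair and colours mark pairs. In excitatory nuclei the male 2 pair is the highest for 7 of these genes, and Inhba runs from 23.9 to 41.9 CPM with female 2 highest.

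By role, the male 2 pair was highest in excitatory nuclei for 4 of 7 tested AP-1 genes, 4 of 4 EGR factors, 3 of 3 NR4A receptors, 3 of 3 other regulators, 7 of 8 feedback genes, 3 of 3 synaptic effectors and 2 of 5 secreted genes. The exceptions were Jun, Jund, Maff, Btg2, Inhba, Vgf and Scg2. Npas4, a neuron-specific factor induced by calcium entry, stood at 4.04, 19.1, 6.19 and 7.60 CPM in WT and at 4.41, 14.8, 4.32 and 5.94 CPM in Chd8het libraries. Nr4a3 stood at 9.34, 16.3, 4.40 and 4.96 CPM in WT and at 6.26, 40.7, 12.8 and 5.57 CPM in Chd8het libraries. Both had their 2 highest values in the male 2 pair, with Npas4 higher in its WT and Nr4a3 in its Chd8het library. Sik1, a kinase that restrains CREB coactivators, reached 5.81 and 7.96 CPM there and lay between 0.497 and 1.91 CPM in the other 6 libraries. Jun, by contrast, stood at 3.69, 2.35, 3.95 and 1.89 CPM in WT and at 3.89, 3.16, 4.43 and 2.25 CPM in Chd8het libraries, with the single-indexed libraries all higher. Groups by index type did not overlap for 4 of the 33 genes in excitatory nuclei (Scg2, Jun and Jund above in single-indexed libraries, Egr1 below), beside 30.2% of all genes.

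Each library was also set against the median of the 8, gene by gene. The median ratio over the 33 genes was 1.63 in WT male 2 and 2.08 in Chd8het male 2, and 0.656 to 1.06 in the other 6 libraries. In WT male 2, 13 genes were above a ratio of 2 (1.2% of all genes), in Chd8het male 2, 19 (1.78% of all genes), and in the other 6 libraries none. The ratios for Arc were 5.03 in WT and 4.63 in Chd8het male 2, and for Fos 3.97 and 3.80. Nr4a2, at 2.06 and 5.63, and Nr4a3, at 2.09 and 5.22, were further up in the Chd8het library of the pair. Malat1, a nuclear RNA, was lower in the male 2 pair, at 37130 and 36020 CPM against 50410 to 80480 CPM in the others, and its part in the result was not tested. Heat shock genes, at 204.6 CPM in WT and 244.2 CPM in Chd8het male 2 against 169.5 to 208.6 CPM, were above the others in the Chd8het library of the pair and inside their range in the WT library. Mitochondrial transcripts, at 767.3 and 1799 CPM, were not on 1 side of the others, which ran from 865.3 to 2154 CPM.

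**Figure D3:**
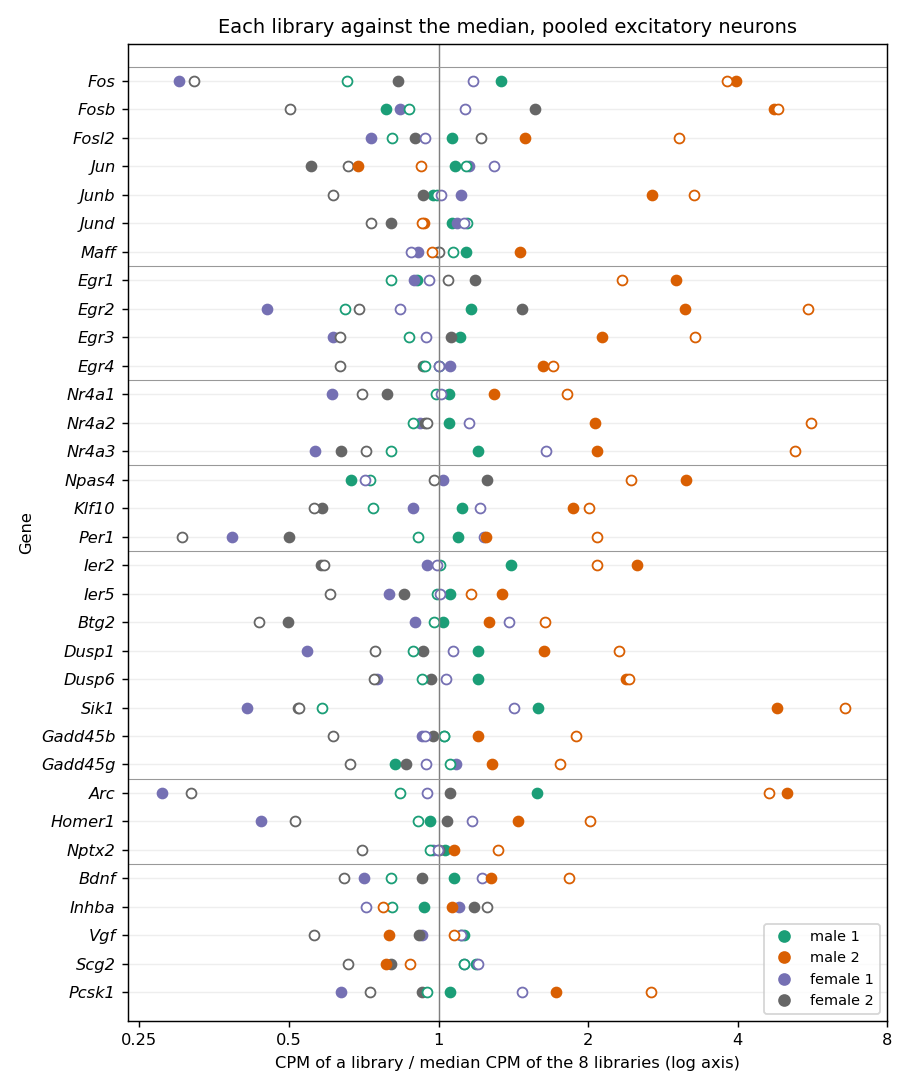
Level of each of 33 genes in pooled excitatory nuclei of each library, divided by the median of the 8 libraries (log x axis). Rows are genes and each point is a library. Filled points are WT, open points Chd8het, and colours mark pairs. The points of both male 2 libraries are shifted to the right, with medians of 1.63 and 2.08. No point of the other 6 libraries passes 2.

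In pooled interneurons 26 genes passed the count minimum, and the male 2 pair was highest for 12 of them, beside 8.9% of all genes. The other pairs were highest for 2 (male 1, Vgf and Gadd45g; 6.73%), 0 (female 1; 6.15%) and 0 genes (female 2; 3.18%). Nr4a3 stood at 2.06, 4.77, 2.35 and 2.65 CPM in WT and at 2.68, 16.1, 2.92 and 2.80 CPM in Chd8het libraries, so that 1 library held most of its range. Egr1 stood at 5.55, 12.8, 2.98 and 7.71 CPM in WT and at 8.03, 16.8, 6.14 and 5.74 CPM in Chd8het libraries. The median ratio over the 26 genes was 1.65 in Chd8het male 2, with 10 genes above 2 (0.739% of all genes). In WT male 2 it was 1.09, with 1 gene above 2 (0.285%), inside the range of the other 6 libraries (0.767 to 1.09). The excitatory marker Slc17a7 in interneurons was 35.4 to 53.95 CPM in the male 2 pair, inside the range of the others (34.2 to 67.8 CPM), and so was Camk2a, at 267.8 to 337.1 CPM against 263.0 to 350.1 CPM. These markers do not track carried-over RNA of genes that were themselves higher in excitatory nuclei. The part of such RNA in the interneuron values was not tested. Index groups did not overlap for 4 of the 26 genes (Scg2, Vgf, Jund and Gadd45g), beside 27.3% of all genes. In astrocytes, too, Arc was 14.5 and 16.6 CPM in the male 2 pair against 1.56 to 9.56 CPM in the others, and Junb, an AP-1 subunit, 13.1 and 15.1 CPM against 2.595 to 8.397 CPM. Nr4a1, at 10.9 and 28.6 CPM against 4.48 to 16.4 CPM, and Homer1, at 119.7 and 198.1 CPM against 61.02 to 125.0 CPM, were above the others in 1 library of the pair. Of the neuron markers there, Snap25 was 179 and 310 CPM in the pair against 208 to 259 CPM, Slc17a7 92.1 to 122.3 CPM against 94.98 to 152.2 CPM and Camk2a 181.3 to 265.5 CPM against 153.4 to 292.0 CPM. The part of carried-over neuronal RNA in these astrocyte values was not tested.

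Shares of nuclei were counted for 12 rapid genes (Fos, Fosb, Junb, Egr1, Egr2, Egr4, Arc, Npas4, Nr4a1, Ier2, Btg2 and Dusp1) after thinning each nucleus to 2000 UMIs. This left out 22 to 123 shallower excitatory nuclei per library. It also left out 1591 astrocytes (4195 counted), 502 oligodendrocytes (3065 counted) and 3131 microglia (513 counted). Astrocytes left out ran from 88 in Chd8het female 2 to 311 in Chd8het male 1. The glial shares at this depth thus describe the deeper nuclei only. Excitatory nuclei with a UMI of any rapid gene made up 27.4% in WT male 2 and 31.7% in Chd8het male 2, against 11.01 to 16.5% in the other 6 libraries. In interneurons these shares were 14.96% and 19.2% against 5.88 to 10.5%, in oligodendrocytes 12.9% and 15.9% against 4.96 to 10.2%, and in astrocytes 16.2% and 21.9% against 6.41 to 14.2%. In microglia, with 34 to 101 nuclei per library, they were 29.4% and 49.4% against 12.2 to 30.7%. The interneuron shares thus lay within those of glia, and the part of free RNA in them was not tested. At 1000 UMIs both male 2 libraries were above the others in excitatory nuclei and oligodendrocytes, as at 2000 UMIs, and also in microglia. In interneurons the pair was then at 6.19 to 8.70% against 2.18 to 6.25%, and in astrocytes at 7.69 to 14.29% against 4.21 to 8.015%. So 1 male 2 library lay inside the range of the others in both types. At 2000 UMIs, excitatory nuclei with at least 3 rapid genes were 33 of 3473 in WT male 2, or 0.9502% (exact 95% binomial interval 0.655 to 1.33%), and 35 of 3390 in Chd8het male 2, or 1.03% (0.720 to 1.43%). The highest share among the other 6 was 0.0996% (0.0324 to 0.232%), in Chd8het female 1. At 1000 UMIs per nucleus the shares were 0.2003% (0.0806 to 0.412%) in WT male 2 and 0.0877% (0.0181 to 0.256%) in Chd8het male 2. The highest of the others was then 0.0395% (0.00478 to 0.143%) in Chd8het female 1, so the intervals overlapped at that depth. These intervals cover counting error only. Without thinning, the shares were 17.5% in both male 2 libraries and 1.20 to 3.26% in the others. Over all 8 libraries the thinned share was 0.271% ± 0.454 (SD, n = 4) in WT and 0.300% ± 0.489 (SD, n = 4) in Chd8het, a difference far inside the spread.

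**Figure D4:**
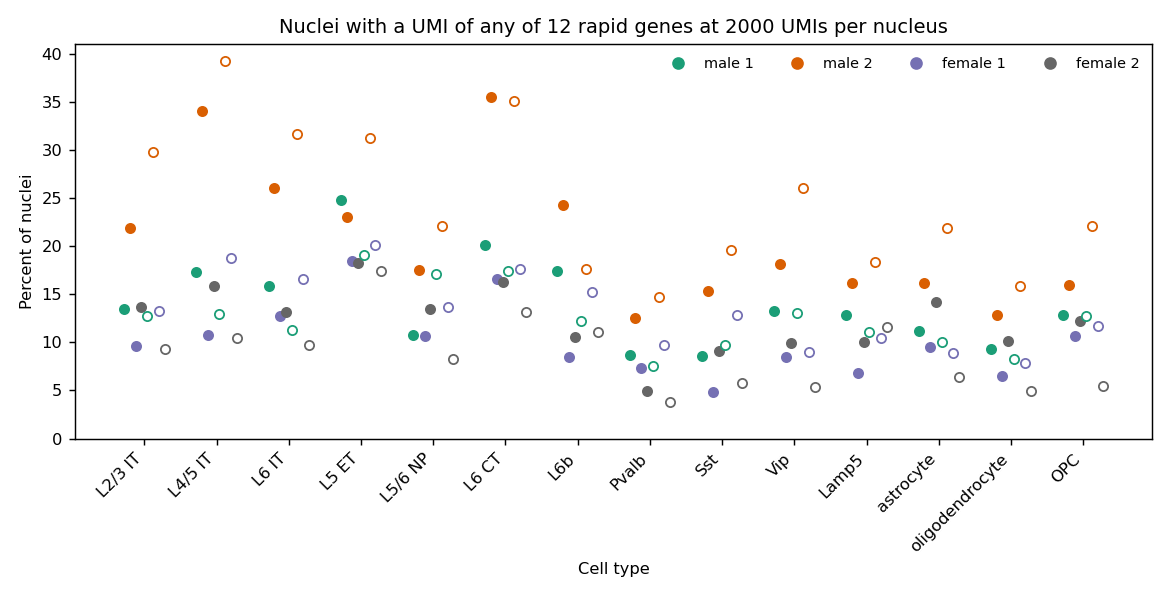
Percentage of nuclei with at least 1 UMI of any of 12 rapid genes after thinning to 2000 UMIs, by cell type (x axis) and library (points; filled WT, open Chd8het, colours mark pairs). In pooled excitatory nuclei, which are not drawn, the 2 male 2 libraries were highest, at 27.4 and 31.7%, with the other 6 between 11.01 and 16.5%.

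By this share, at the higher depth, the male 2 pair was the 2 highest libraries in 6 of the 7 excitatory subtypes. In L5 ET the exception was WT male 1 at 24.8%, above WT male 2 at 23.1%, with Chd8het male 2 highest at 31.3%. Margins were small in L5/6 NP (17.5 to 22.15% against up to 17.08%) and L6b (17.65 to 24.29% against up to 17.39%). At 1000 UMIs the pair was no longer highest in L5/6 NP (9.88 to 10.39% against up to 10.5%). The same held in L6b (6.94 to 10.78% against up to 12.86%). In L5 ET the pair was then highest (13.45 to 18.69% against up to 12.15%). The next shares are again at the higher depth. In L4/5 IT nuclei 34.03 to 39.3% held a rapid gene UMI in the male 2 pair against 10.4 to 18.8% in the other libraries, and in L6 CT nuclei 35.1 to 35.6% against 13.2 to 20.1%. In the male 2 pair Arc was found in 9.33% of the excitatory nuclei with an Egr1 UMI (36 of 386) and in 5.71% of those without one. In the other 6 libraries these shares were 1.10% (7 of 635) and 1.06%. Nuclei of 1 library are not replicates, so no test is given.

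Levels of the genes were correlated across libraries. Centred on index type, 459 of 528 pairs of genes had a Pearson r above 0.5 over the 8 libraries in excitatory nuclei (86.93%; 17.29% of all gene pairs), and 240 of 528 (45.45%; 21.76% of all gene pairs) over the 6 libraries other than male 2. Between excitatory nuclei and interneurons of the same library, 17 of 26 genes had an r above 0.5 over those 6 libraries (44.22% of all genes) and 22 of 26 over all 8 (44.4%). The median r over the 6 was 0.60, with 0.418 for all genes. These are descriptions over points that share a library, its depth, its dissection and any carried-over RNA. The 10 genes outside the group whose library profile in excitatory nuclei was most like the mean of the 12 rapid genes (log2 levels centred on index type, each gene scaled by its SD) were Lrrtm2, Cap1, Gm16536, Lrrfip1, Zfp664, Ip6k2, Gm15998, Uspl1, Ppp2r5a and Cep89, with r of 0.984 to 0.991 over the 8 libraries. Of all genes, 2.746% had an r above 0.9 to that mean. Cap1 and Ip6k2 did not have the male 2 pair highest, and Lrrtm2 ran only from 13.55 to 17.43 CPM.

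No gene of the group was called between WT and Chd8het. Across 21 units (2 pooled classes, 11 neuronal subtypes and 8 other types) 0 of 334 tests passed an adjusted p of 0.05 in edgeR's quasi-likelihood test with Benjamini-Hochberg adjustment over all genes of a unit, beside 0.0% of all 226620 tests. With the pair as a block, 0 of 334 passed as well, beside 0.0256% of all tests. The lowest adjusted p by edgeR with the block was 0.161, for Nr4a3 in L5 ET neurons. At an unadjusted p under 0.05 there were 8 of the 334 (2.38% of all tests), and 36 with the block (6.28% of all tests). Of these, 7 and 26 were higher in Chd8het.

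In pooled excitatory nuclei 0 of 33 genes were at an unadjusted p under 0.05 in edgeR (1.51% of all genes) and 2 with the pair as a block, Inhba and Npas4, both lower in Chd8het (6.68%). Without both male 2 libraries the unblocked count was 0 of 33 (0.921%). WT and Chd8het libraries overlapped for all 33 genes tested (1.55% of all genes did not overlap). Inhba stood at 31.3, 35.7, 36.7 and 39.5 CPM in WT and at 27.0, 25.9, 23.9 and 41.9 CPM in Chd8het libraries, a log2 difference of -0.30 (SE 0.16). It was lower in Chd8het in 3 of 4 pairs, and the groups overlapped through female 2. The other genes with the smallest p in this class were Nr4a3 (log2 difference 0.89, SE 0.52), Per1 (0.55, SE 0.42), Fosl2 (0.47, SE 0.36) and Nr4a1 (0.25, SE 0.20). Nr4a3 in Chd8het male 2 was at 5.22 times the median of the 8 libraries. The other Chd8het libraries, at 0.714 to 1.65 times, lay inside the WT range of 0.564 to 2.09 times. Per1 stood at 25.5, 29.0, 8.97 and 11.7 CPM in WT and at 21.2, 48.6, 28.8 and 7.12 CPM in Chd8het libraries, and Fosl2, a Fos-related AP-1 subunit, ran from 3.08 to 6.28 CPM in WT and from 3.40 to 12.8 CPM in Chd8het. Nr4a1 stood at 44.2, 54.5, 25.8 and 33.1 CPM in WT and at 41.6, 76.3, 42.7 and 29.6 CPM in Chd8het libraries, and the groups of all 3 genes overlapped.

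Among the rapid genes in excitatory nuclei the log2 difference was 0.00 for Fos (SE 0.58), -0.21 for Egr1 (SE 0.41), -0.21 for Arc (SE 0.65), -0.07 for Junb (SE 0.42) and -0.37 for Npas4 (SE 0.49). Each standard error of this fit, which has no pair block, exceeded its difference, and the value for Fos turned below 0 with DESeq2 size factors. With the block, Npas4 was at an unadjusted p under 0.05 in edgeR, as given above. Junb stood at 5.83, 16.04, 6.63 and 5.55 CPM in WT and at 5.93, 19.6, 6.03 and 3.66 CPM in Chd8het libraries. Bdnf stood at 25.97, 30.8, 17.1 and 22.3 CPM in WT and at 19.4, 44.3, 29.5 and 15.6 CPM in Chd8het libraries, a log2 difference of 0.15 (SE 0.28). Both overlapped between genotypes, with the male 2 pair highest. Of the 33 genes 19 were on the higher side in Chd8het, with a median log2 difference of 0.03, and without the male 2 pair 11 were, with a median of -0.07. Pair by pair the median was -0.15 in male 1, 0.31 in male 2, 0.26 in female 1 and -0.28 in female 2, so pairs differed in sign.

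**Figure D5:**
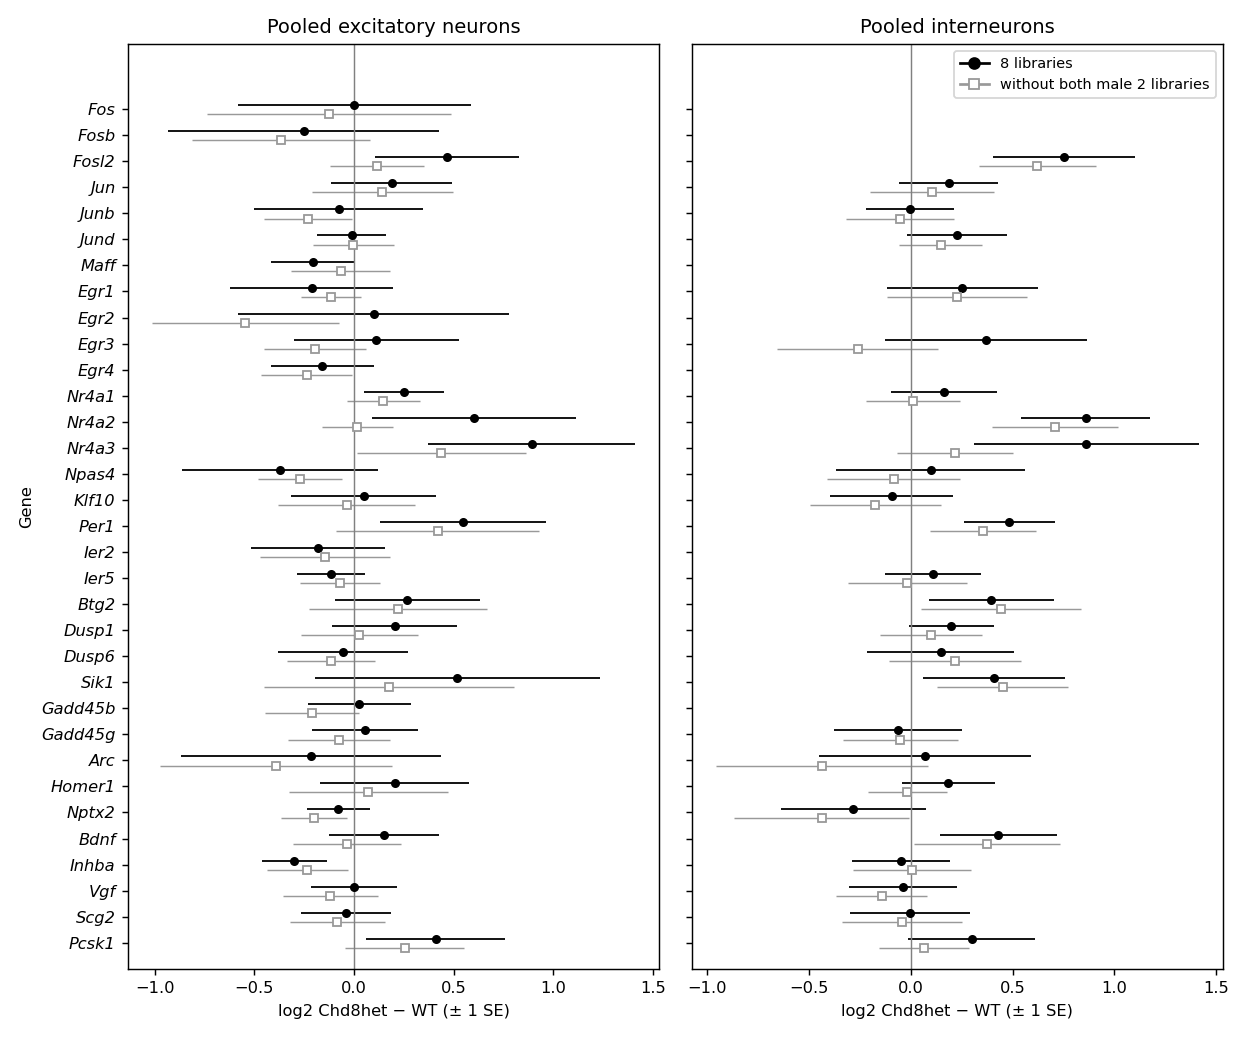
Log2 difference of Chd8het against WT (bars ±1 SE) for each tested gene in pooled excitatory nuclei and pooled interneurons, from all 8 libraries and without both male 2 libraries. In interneurons Nr4a2 is at 0.86 with all libraries and 0.71 without the male 2 pair.

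In pooled interneurons 1 of 26 genes was at an unadjusted p under 0.05 in edgeR, Nr4a2 (1.8% of all genes), and 4 with the block, Fosl2, Nr4a2, Nr4a3 and Per1, all higher in Chd8het (6.48%). Nr4a2 stood at 1.43, 2.72, 2.51 and 2.65 CPM in WT and at 3.72, 6.71, 3.53 and 3.68 CPM in Chd8het libraries. It was the 1 gene of 26 whose groups did not overlap (1.86% of all genes). The log2 difference was 0.86 (SE 0.32), with an adjusted p of 1.00 in edgeR, and of 0.465 with the pair as a block. Without both male 2 libraries it was 0.71, and Nr4a2 was again the 1 gene at an unadjusted p under 0.05 (1.43% of all genes). Nr4a2 is known in midbrain as a factor of dopamine neuron identity as well as an activity-induced gene. Its interneuron values rested on 9, 16, 16 and 23 UMIs in WT and 25, 45, 23 and 25 UMIs in Chd8het libraries. Within index types, Chd8het minus WT was 1.65 CPM in the single-indexed and 2.51 CPM in the dual-indexed libraries.

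Per1 in interneurons stood at 15.4, 14.0, 7.69 and 8.98 CPM in WT and at 16.8, 25.2, 16.4 and 7.80 CPM in Chd8het libraries, a log2 difference of 0.48 (SE 0.22). Fosl2 stood at 2.696, 4.77, 1.88 and 2.30 CPM in WT and at 3.42, 9.39, 3.99 and 3.39 CPM in Chd8het libraries, a difference of 0.75 (SE 0.35). Both overlapped between groups and neither passed the adjusted test. Nr4a3 differed by 0.86 (SE 0.55), but by -0.0657 without Chd8het male 2 and by 0.22 without both male 2 libraries. Bdnf differed by 0.43 (SE 0.29), at an interneuron level (19.1% of excitatory) below that of the carried-over marker Slc17a7 (21.6%). Among the rapid genes that passed the count filter in interneurons, the log2 difference was 0.25 (SE 0.37) for Egr1, 0.16 (SE 0.26) for Nr4a1, 0.10 (SE 0.46) for Npas4, 0.07 (SE 0.52) for Arc and -0.0045 (SE 0.22) for Junb. Arc stood at 3.81, 5.45, 0.785 and 4.03 CPM in WT and at 3.12, 10.1, 2.30 and 1.33 CPM in Chd8het libraries, so the groups overlapped with Chd8het male 2 highest. Of the 26 genes 19 were on the higher side in Chd8het, with a median of 0.19 beside 0.01 for all genes, and without the male 2 pair 15 were, with a median of 0.04. The pair medians were 0.09 in male 1, 0.43 in male 2, 0.30 in female 1 and -0.17 in female 2.

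Across the 11 neuronal subtypes 4 of 202 tests were at an unadjusted p under 0.05 in edgeR (2.29% of all tests), and 22 with the block (6.25%). Nr4a2 in Pvalb cells, the fast-spiking interneurons, stood at 1.82, 2.49, 3.63 and 2.58 CPM in WT and at 4.80, 8.48, 4.57 and 5.64 CPM in Chd8het libraries. This was the 1 test of 202 without overlap (1.96% of all tests). Most WT libraries lay below the level that the count filter asks for, so Nr4a2 passed the filter through its Chd8het libraries. The missing overlap and the fit are therefore a description. Pvalb cells are part of the pooled interneurons, so this is not separate from the pooled result for Nr4a2. In Sst, Vip and Lamp5 cells Nr4a2 did not pass the count filter. The log2 difference of Nr4a2 in Pvalb cells was 1.10 (SE 0.35), with an adjusted p of 1.00 in edgeR and of 0.492 with the block. Without both male 2 libraries the difference was 0.89. Per1 in the same cells differed by 0.58 (SE 0.24) and by 0.34 without them, with overlapping groups. Inhba in L6 IT neurons stood at 42.6, 45.7, 47.8 and 50.2 CPM in WT and at 35.8, 27.9, 29.1 and 45.2 CPM in Chd8het libraries. It was lower in Chd8het in every pair, by a log2 difference of -0.43 (SE 0.16), with an adjusted p of 1.00 in edgeR and of 0.479 with the block. Within index types, Chd8het minus WT was -12.7 CPM in the single-indexed and -11.4 CPM in the dual-indexed libraries.

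In 4 excitatory subtypes the gene of smallest p was Nr4a3 or Nr4a2, with Chd8het male 2 the highest library. Nr4a3 in L2/3 IT stood at 6.04, 7.76, 1.31 and 2.04 CPM in WT and at 3.69, 32.5, 8.77 and 2.26 CPM in Chd8het libraries, a log2 difference of 1.49 (SE 0.64) that was 0.83 without the male 2 libraries. Nr4a2 in L4/5 IT stood at 1.44, 2.47, 0.763 and 0.782 CPM in WT and at 1.64, 8.48, 2.28 and 1.05 CPM in Chd8het libraries. Chd8het male 2 was high there and held 374 L4/5 IT nuclei. Nr4a3 in L5 ET stood at 8.44, 18.0, 5.50 and 5.31 CPM in WT and at 8.45, 38.0, 13.7 and 8.72 CPM in Chd8het libraries, higher in Chd8het in 4 of 4 pairs with overlapping groups. In L6 CT the log2 difference of Nr4a3 was 0.91 (SE 0.46).

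In the remaining subtypes the gene of smallest p was Scg2 in L5/6 NP (log2 difference 0.47, SE 0.23) and in L6b (-0.42, SE 0.35), Pcsk1 in Sst (0.52, SE 0.37) and in Lamp5 (0.75, SE 0.41), and Jund, an AP-1 subunit, in Vip cells (0.76, SE 0.41). Scg2 differed in direction between L5/6 NP and L6b. Among the 8 other types 3 of 73 tests were at an unadjusted p under 0.05 (2.97% of all tests), and 8 with the block (6.15%). Per1 in oligodendrocytes stood at 37.3, 39.95, 31.8 and 35.8 CPM in WT and at 52.4, 55.3, 50.2 and 40.8 CPM in Chd8het libraries. The log2 difference was 0.42 (SE 0.15). Summed neuron markers in oligodendrocytes were also apart by genotype, at 817.3 to 963.98 CPM in WT and 975.2 to 1299 CPM in Chd8het libraries, and their part was not tested. In oligodendrocyte precursors (OPC) Pcsk1 stood at 7.15, 8.07, 6.49 and 12.04 CPM in WT and at 15.7, 19.1, 14.7 and 14.0 CPM in Chd8het libraries, a difference of 0.84 (SE 0.31) that was 0.73 without both male 2 libraries. Pcsk1 in OPC stood at 31.5% of its excitatory level, within the percentages of carried-over neuron markers there (10.8 to 46.9%). Most of its WT values lay below the level that the count filter asks for, so Pcsk1 passed the filter there through its Chd8het libraries. Jund in OPC differed by 0.76 (SE 0.33). None of the 3 passed the adjusted test. These 3 were the tests of 73 whose groups did not overlap (2.35% of all tests).

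The genotype difference in interneurons was set against that in excitatory nuclei in 1 model over both classes. No gene of 33 was called (0.0% of all genes), and 2 were at an unadjusted p under 0.05, Fosb and Egr1 (3.78% of all genes). Fosb had not passed the count filter in interneurons alone. It held 0, 2, 0 and 1 UMIs there in WT and 3, 9, 1 and 1 UMIs in Chd8het libraries. The median of the differences was 0.13, with 0.00 over all genes. Without the male 2 pair 32 genes were tested, Fosb not among them, and no gene was at that p. Without that pair the median was 0.0694. Leaving out 1 library at a time it ran from 0.0047 (Chd8het male 1 left out) to 0.244 (Chd8het male 2 left out). A difference between female and male genotype effects was at an unadjusted p under 0.05 for 0 of 33 genes in excitatory nuclei (0.484% of all genes) and 0 of 26 in interneurons (0.657%). None of 29 signalling genes upstream of the programme, such as Creb1, Srf and Camk4, was called in either class. In edgeR 0 were at an unadjusted p under 0.05 in excitatory nuclei (1.51% of all genes) and 1 in interneurons, Rps6ka5 (1.8%). With the pair as a block there were 3 in excitatory nuclei, Cacna1c, Crem and Rps6ka5 (6.68%), and 2 in interneurons, Mrtfa and Rps6ka5 (6.48%). The male 2 pair was highest for 10 of the 29 in excitatory nuclei (13.1% of all genes) and for 3 in interneurons (8.9%). Of other activity-induced genes, 30 were tested in excitatory nuclei and 23 in interneurons and none was called, while the male 2 pair was highest for 17 and 3 of them (13.1% and 8.9% of all genes).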

How the data were processed

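The deposited matrices hold UMI counts per gene and nucleus, made by the authors with STAR 2.7.9a, STARsolo and Cell Ranger on mm10, per the submitters' processing notes. Library strand setting and the counting of introns are not given in the sources used here. Nuclei with at least 500 genes and at most 5% mitochondrial UMIs were kept, and doublets predicted by Scrublet, per library at 0.8% per 1000 nuclei, were removed (5.49% of nuclei). Leiden clustering (scanpy 1.11.5, resolution 1.5, 40 components of 2980 variable genes, without the 36 genes) gave 52 clusters. A cluster needed at least 3 listed markers raised, a mean log2 fold of at least 1, a margin of 0.5 over the next name, and leading genes and UMIs that did not go against the name. In all, 29 clusters were named, 12 were left out for doublets and the rest stayed unnamed. Names were rebuilt here and may differ from the study's.

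UMIs were summed per library and type. CPM were computed from these sums. Tests were edgeR 4.0.16 quasi-likelihood fits with sex and genotype on all genes passing a filter at 10 counts, with Benjamini-Hochberg adjustment within each type, at a threshold of 0.05, tested on simulated data first. DESeq2 1.42.0, a block for pairs, other filters and leaving out libraries were alternatives. The labels describe litter- and sex-matched pairs but do not say which libraries form one. WT and Chd8het libraries that share sex and number were taken as pairs. They deviated together in pooled excitatory nuclei (r 0.393 to 0.645) and interneurons (0.359 to 0.530). WT and Chd8het libraries of the same index type but other sex had r of 0.196 to 0.396 and 0.255 to 0.331. Libraries of a pair share sex and index type, so these values cannot tell a shared litter from those. The deposited files are numbered 2 and 3 where the titles have 1 and 2. The titles were used, and either numbering gives the same pairs. The animals are separate, but p-values rest on 4 per genotype.

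The members and gene lists were chosen with earlier results of these data known. Genes named with values were the 5 of smallest unadjusted p in each pooled class, the 1 of smallest p in each subtype, any gene called (none was), Fos, Junb, Egr1, Arc, Npas4, Nr4a1 and Bdnf, and the 10 genes most like the rapid genes' profile. Others were added after their values were seen, as leads of a type, exceptions or tests at an unadjusted p under 0.05. Promoter windows came from RefSeq (GRCm38.p6).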

Additional observations from a re-analysis of the deposited data

Results flagged for a closer look

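Of 66 groups of 4 libraries examined, 13 had 1 library set apart from the other 3 by a gap beyond Dixon's 95% critical value. Chance gives this in about 1 of 20 groups, and groups of genes that share libraries are not independent. In 11 of the 13 the library was a male 2 library at the top.

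In pooled excitatory nuclei these were Junb in WT male 2 (16.04 CPM, next 6.63) and Chd8het male 2 (19.6 CPM, next 6.03), and Egr1 in WT male 2 (31.0 CPM, next 12.2) and Chd8het male 2 (24.1 CPM, next 10.8). Arc (25.6 CPM, next 5.25) and Npas4 (14.8 CPM, next 5.94) stood apart in Chd8het male 2. Inhba stood apart in Chd8het female 2 (41.9 CPM, next 27.0).

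In interneurons, Chd8het male 2 stood apart for Fosl2 (9.39 CPM, next 3.99), Npas4 (5.96 CPM, next 2.36), Nr4a2 (6.71 CPM, next 3.72) and Nr4a3 (16.1 CPM, next 2.92), and WT male 1 was low for Nr4a2 (1.43 CPM, next 2.51). In L4/5 IT neurons Nr4a2 stood apart in Chd8het male 2 (8.48 CPM, next 2.28).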

How the results depend on the processing

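No gene of the group was called under any of 20 settings, and the lowest adjusted p in edgeR or DESeq2 was 0.0875. Of 625 recomputed values of 32 named differences, 574 kept their direction and call; 51 turned direction, in 14 differences, and the cause was not tested.

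For Fos in excitatory nuclei (0.00) the log2 difference was -0.18 with the replicate block, -0.20 with DESeq2 and the block, -0.15 without the sex term, -0.0011 with DESeq2 size factors, -0.0069 with doublets kept, -0.0002 with the stricter nucleus filter, -0.0131 with nuclei typed by their own markers and -0.13 without both male 2 libraries. Bdnf there was -0.0008 by own markers and -0.0339 without both male 2 libraries, and Junb 0.0167 without the sex term. In interneurons Junb was 0.0076 with index type added, 0.0237 without the sex term and 0.0335 with the stricter filter. Arc was -0.0241 with doublets kept, -0.11 by own markers, -0.28 after thinning and -0.44 without both male 2 libraries, and Npas4 was -0.16 by own markers and -0.0826 without both. Leaving out 1 library at a time gave, in excitatory nuclei, ranges of -0.55 to 0.50 for Fos, -0.0199 to 0.73 for Fosl2, -0.56 to 0.19 for Junb, -0.53 to 0.24 for Egr1, -0.82 to 0.23 for Arc, -0.81 to 0.16 for Npas4, -0.11 to 0.34 for Bdnf and -0.0054 to 0.79 for Per1. In interneurons they were -0.11 to 0.11 for Junb, -0.0563 to 0.57 for Egr1, -0.56 to 0.63 for Arc, -0.45 to 0.40 for Npas4, -0.11 to 0.33 for Nr4a1 and -0.0657 to 1.18 for Nr4a3. The replicate block changed no other call.

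Agreement over libraries between excitatory nuclei and interneurons was called by exact permutation of Pearson r for 10 of 26 genes and of Spearman rho for 0, for 18 and 10 without index centring, and for 0 by either without the 2 libraries farthest from the median or without both male 2 libraries, where fewer libraries leave fewer permutations. These calls were adjusted over the 26 genes and are a description. Unadjusted, 13 of 26 by r and 13 by rho were at an exact p under 0.05, beside 17.5% and 14.24% of all genes. The mean share of excitatory nuclei with at least 3 rapid genes was 0.285% thinned and 6.02% unthinned. Low UMI sums limit genes such as Nr4a2 in interneurons.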

Other observations

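Other activity-induced genes outside the 36 were read in pooled excitatory nuclei. Tiparp, an ADP-ribosyltransferase, stood at 10.1, 14.97, 2.91 and 2.99 CPM in WT and at 6.10, 28.2, 9.11 and 2.44 CPM in Chd8het libraries, in the order male 1, male 2, female 1, female 2. Its 2 highest values were both in the male 2 pair. Trib1, a pseudokinase, reached 7.83 and 6.83 CPM in the male 2 pair and lay between 1.62 and 3.08 CPM in the others. Fbxo33 and Rgs4 did not have that order. Rasl11a was at an unadjusted p of 0.0409 (adjusted p of 1.00 in edgeR), with values of 0.745 CPM or less in every library.

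Among 8 heat shock genes tested in excitatory nuclei the male 2 pair was highest for 4, Hspa8, Dnajb1, Dnaja1 and Hsph1 (13.1% of all genes). In interneurons it was highest for 2 of 9 (8.9% of all genes). Hsph1 stood at 44.3 and 62.4 CPM in that pair and at 23.5 to 35.2 CPM in the other 6 libraries. None of them was called between genotypes in edgeR.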
